A study of Mus musculus with 16 samples.

Results

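Immediate early genes and dissociation response genes were followed in mouse medullary thymic epithelial cells (mTEC), the cells of the thymic medulla that display self-antigens to developing T cells. The 10 genes were *Fos*, *Fosb*, *Jun*, *Junb*, *Egr1*, *Klf2*, *Arc*, *Dusp1*, *Ccn1* and *Hspa1b*, 10 of the 53464 Ensembl genes among the 89407 rows of the count table. They were chosen by their measured values, since several had been seen to lie higher in mature mTEC of knockout mice. That contrast is therefore given as a description without a test.

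The study sequenced 16 polyA libraries from 8 mice of 4 to 6 weeks, with mature (MHC class II high) and immature (MHC class II low) mTEC sorted from each mouse as CD45- EpCAM+ Ly51- UEA+ cells, 10000 cells per population. Control mice were Rbfox1 lox/lox or Rbfox2 lox/lox with Foxn1 wildtype/wildtype, and thymus knockout (tKO) mice carried the same floxed alleles with Foxn1 wildtype/cre, so that Cre and loss of the RNA-binding splicing factor came together and cannot be told apart. Each combination of line and genotype held 1 female and 1 male mouse, with littermates as controls. The labels give the strain as C57BL/6, and the study's methods give the floxed lines a mixture of 129S2/Sv and C57BL/6J. Age and cell number above are also those of the labels. The study's methods give an age of 4 weeks and a range of cells per animal that begins at 10000. Since Cre was expressed from the *Foxn1* locus, deletion was directed to cells that express *Foxn1*, among them thymic epithelial cells.

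Immediate early genes are induced within minutes of a stimulus without new protein synthesis, because their promoters are already bound by signal-dependent factors such as SRF and CREB. Most of their products are transcription factors, and their transcripts are unstable, so their levels follow recent signalling closely. Enzymatic digestion and sorting of solid tissue are known to induce the same genes together with heat shock genes. RNA in sorted epithelial cells can therefore record both the state of the cell in the tissue and its handling.

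The mature libraries held 3737884 to 4636367 counts and the immature libraries 1506134 to 2430287. *Rbfox2* had 231 and 247 counts in mature control libraries of its line and 35 and 70 in the tKO libraries, and 157 and 195 against 34 and 54 in immature mTEC. In normalised read counts (CPM), *Rbfox1* was at 50.3 to 53.3 in mature control libraries of its line and at 31.1 to 34.9 in the tKO libraries, but at 161 to 165 and 150 to 157 in immature mTEC, where a gene-level count barely separated the genotypes. The mature mTEC markers *Cd86*, *Cd80*, *Aire* and *Fezf2* were higher in mature than immature mTEC of control mice by 4.95, 3.36, 3.09 and 1.28 on the log2 scale, as the sort labels say. Among the mTEC markers *Ccl21a* was at 0 in every mature library. Summed fibroblast markers were at 1731 to 2600 CPM in immature libraries of the Rbfox2 line and 336 to 675 CPM in those of the Rbfox1 line, and summed endothelial markers at 90.1 to 267 and 35.0 to 93.0 CPM. In bulk samples of this kind fewer cells of a type and less RNA per cell cannot be told apart.

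All 10 members passed the filter on low counts in both populations. Levels were compared between genes per length, as CPM per kilobase of exon. In mature mTEC of control mice *Jun*, a subunit of the AP-1 transcription factor, stood highest at 188 ± 29.6 (SD, n = 4), followed by its relatives *Junb* at 185 ± 12.1 and *Fos* at 175 ± 47.9. Next came *Hspa1b*, an inducible HSP70 chaperone, at 143 ± 43.6, and the zinc finger factor *Egr1* at 95.2 ± 6.55. *Dusp1*, the phosphatase that switches MAP kinases off, was at 41.2 ± 11.8. The zinc finger factor *Klf2* was at 36.6 ± 12.6 and the AP-1 subunit *Fosb* at 33.6 ± 12.6. The lowest levels were those of *Arc*, an immediate early gene best known from neurons, at 23.8 ± 17.03, and of *Ccn1*, a secreted matrix protein, at 15.8 ± 4.05. The first 4 genes overlapped in their ranges over control libraries, as did *Dusp1*, *Klf2*, *Fosb* and *Arc*. In immature mTEC *Jun* again led, at 210 ± 28.5, and *Arc* was lowest, at 6.16 ± 4.66, while *Ccn1* stood next to *Egr1* at 106 ± 29.8, with overlapping ranges. By CPM *Jun* lay above 99.2% of the rows kept in mature mTEC and *Ccn1* above 61.6%.

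**Figure D1:**
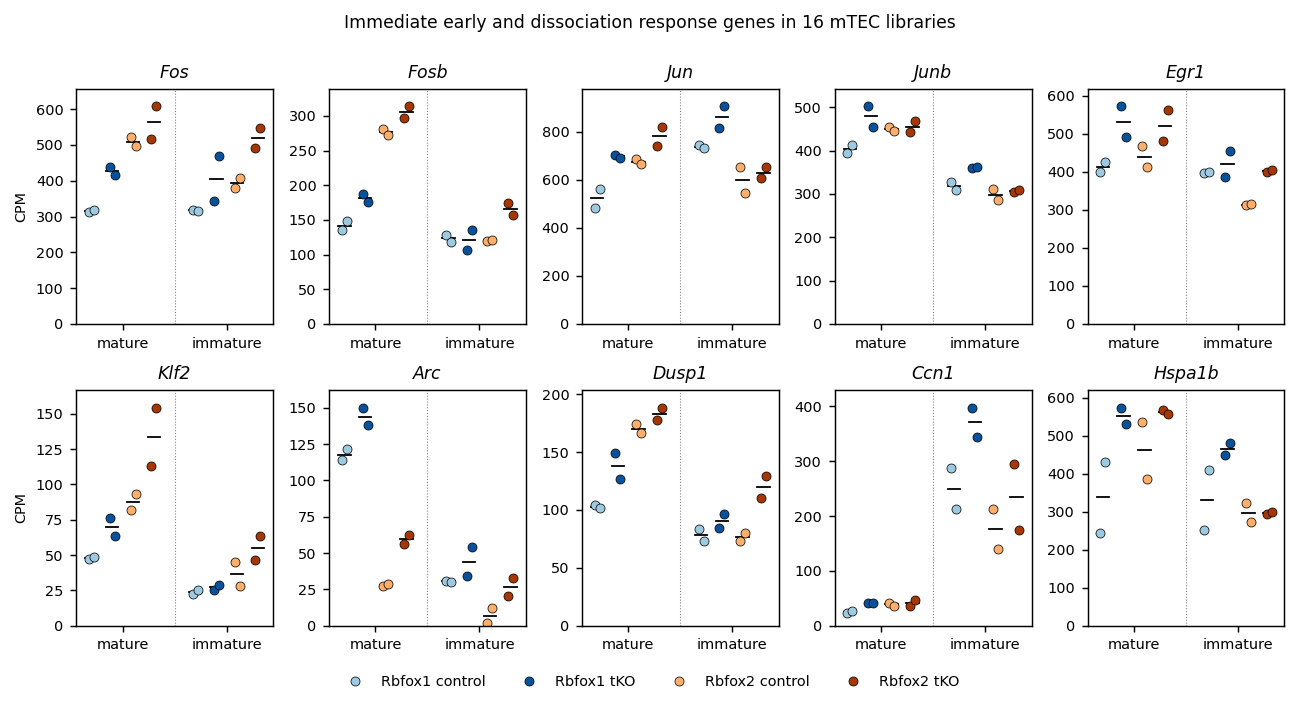
Level of each member in the 16 libraries, in CPM on a linear axis from 0, with mature mTEC left and immature mTEC right of the dotted line; points are libraries, black lines are the mean of the 2 libraries of a condition, and colours mark line and genotype. *Arc* is lower in every mature library of the Rbfox2 line than of the Rbfox1 line, with overlap in immature mTEC, and *Ccn1* is 140.7 to 397.5 CPM in immature but 23.7 to 46.0 CPM in mature mTEC.

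The counting of some members is uncertain where genes share sequence. *Hspa1b* and its neighbour copy *Hspa1a* were alike to the extent that 40.5% of the 150-base windows of the *Hspa1b* transcript occur exactly in *Hspa1a*. *Junb* shares 173 exon bases with *Prdx2* on the other strand, *Jun* shares 232 with the antisense gene *Junos*, and *Dusp1* shares 11 with *Ergic1*. The libraries were stranded, but whether the counting used strand is not stated in any source at hand.

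The stretches before the start sites were searched for short motifs of factors known to act on such genes. Promoters of 8 of the 10 members, all but *Arc* and *Egr1*, were found in the RefSeq table (GRCm38.p6), and the 250 bases before each start were searched on both strands. A short CRE motif (TGACG), the core that CREB and ATF factors recognise, occurred in 6 of the 8, those of *Fos*, *Fosb*, *Junb*, *Klf2*, *Dusp1* and *Ccn1*, and in 17.8% of all 32851 promoter entries. The full CRE (TGACGTCA), which contains the short motif, occurred in that of *Dusp1* and in 1.55% of all entries. The heat shock element core (GAANNTTC) occurred in those of *Hspa1b* and *Jun* and in 6.69% of all, and the TATA box (TATAAA) in those of *Fos* and *Ccn1* and in 12.4% of all. Neither the AP-1 site (TGANTCA) nor the CArG box of SRF was found in these windows, against 6.75% and 1.47% of all entries. Sites farther from a start than 250 bases, and any site of *Arc* or *Egr1*, were outside the search, so these genes may still carry such motifs. A match is a description of the letters and not evidence of binding. The 60 bases around the match nearest the start are printed 5′ to 3′ on the gene's strand, with the matched letters in capitals. For *Fos*, *Fosb*, *Ccn1* and *Junb* the first base of the short motif lies 66, 60, 58 and 106 bases before the start. They are shown as examples of the motif most frequent in the set, with *Dusp1* for its full CRE 143 bases before the start, and no relation of the motifs to the members' levels was tested.
Fos, chr12:85473796-85473855, plus strand: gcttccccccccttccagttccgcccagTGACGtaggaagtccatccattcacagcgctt
Fosb, chr7:19310074-19310133, minus strand: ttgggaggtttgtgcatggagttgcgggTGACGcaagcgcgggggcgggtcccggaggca
Ccn1, chr3:145650012-145650071, minus strand: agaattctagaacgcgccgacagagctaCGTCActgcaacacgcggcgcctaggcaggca
Junb, chr8:84978823-84978882, minus strand: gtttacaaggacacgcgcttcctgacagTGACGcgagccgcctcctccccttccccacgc
Dusp1, chr17:26508582-26508641, minus strand: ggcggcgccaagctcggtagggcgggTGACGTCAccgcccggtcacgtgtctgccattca
The 2 promoters with a heat shock element core, 104 bases before the start of *Hspa1b* and 128 bases before that of *Jun*, are shown with that core in capitals.
Hspa1b, chr17:34959309-34959368, minus strand: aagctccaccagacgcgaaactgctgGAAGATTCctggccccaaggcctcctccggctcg
Jun, chr4:95052317-95052376, minus strand: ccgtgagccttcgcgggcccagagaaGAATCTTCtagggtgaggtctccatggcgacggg

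In mature mTEC the comparison that chose the members, tKO against control, is given as a description only. All 10 log2 fold changes were above 0 in each line, with a median over members of 0.42 in the Rbfox1 line and 0.18 in the Rbfox2 line, while the median over all 18021 rows was 0.00 in both. In the Rbfox1 line the 2 tKO libraries lay above the 2 control libraries for 10 of 10 members, against 15.8% of all rows. In the Rbfox2 line they did so for 7 (all but *Fos*, *Junb* and *Ccn1*), against 17.2% of rows, and for the same 7 genes in both lines together, against 2.57% of rows. The choice of members fixes these counts, and nothing is read from them.

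Among the AP-1 genes, *Fos* was at 312 and 318 CPM in mature Rbfox1 control libraries and at 438 and 417 CPM in Rbfox1 tKO libraries. In the Rbfox2 line it was at 523 and 496 CPM in control and 517 and 609 CPM in tKO libraries. The groups were thus apart in the Rbfox1 line and overlapped in the Rbfox2 line, with log2 fold changes of 0.44 ± 0.09 (SE) and 0.15 ± 0.09. *Jun* was at 483 and 561 CPM in Rbfox1 control, 705 and 689 in Rbfox1 tKO, 685 and 665 in Rbfox2 control, and 741 and 821 in Rbfox2 tKO libraries. *Fosb* changed by 0.36 ± 0.09 and 0.14 ± 0.09, and *Junb* by 0.25 ± 0.08 and 0.02 ± 0.08, the smallest difference of the set.

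Of the other factors, *Egr1* was at 401 and 427 CPM in Rbfox1 control and 573 and 491 CPM in Rbfox1 tKO libraries, and at 468 and 412 CPM against 481 and 561 CPM in the Rbfox2 line. *Klf2* showed the most even difference between lines, 0.54 ± 0.14 and 0.62 ± 0.13. It rested on 47.1 and 48.9 CPM in Rbfox1 control, 75.9 and 63.8 in Rbfox1 tKO, 81.8 and 92.9 in Rbfox2 control, and 113 and 154 CPM in Rbfox2 tKO libraries. *Arc* was at 114 and 121 CPM in Rbfox1 control and 150 and 138 CPM in Rbfox1 tKO libraries. In the Rbfox2 line it was far lower, at 27.1 and 28.4 CPM in control and 56.5 and 62.5 CPM in tKO libraries, a log2 fold change of 1.10 ± 0.13 against 0.29 ± 0.10 in the Rbfox1 line.

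*Dusp1* was at 104 and 102 CPM in Rbfox1 control and 149 and 127 CPM in Rbfox1 tKO libraries, and lay between 167 and 188 CPM in the 4 libraries of the Rbfox2 line. *Ccn1* was at 23.7 and 26.8 CPM in Rbfox1 control libraries, at 40.7 and 40.6 CPM in Rbfox1 tKO libraries, and between 35.6 and 46.0 CPM in the Rbfox2 line, where the groups overlapped. *Hspa1b* was at 243 and 432 CPM in Rbfox1 control libraries and 574 and 531 CPM in Rbfox1 tKO libraries. In the Rbfox2 line it was at 538 and 386 CPM in control and 567 and 557 CPM in tKO libraries, so that the control pairs were wide and the tKO pairs narrow. *Hspa1a* followed the same pattern, with 99.6 and 211 CPM in Rbfox1 control and 285 and 278 CPM in Rbfox1 tKO libraries. Outside the members, 18 of 24 other immediate early genes, 12 of 12 heat shock proteins and 5 of 5 other AP-1 and ATF subunits measured in mature mTEC were higher in tKO mice over both lines. Their median log2 fold changes were 0.13, 0.07 and 0.11, against 0.31 for the members, and 50.7% of all rows were above 0. Of 8 MAP kinase feedback inhibitors 2 were above 0 and of 8 upstream regulators, the kinases and factors that drive immediate early genes, 4 were, with medians of -0.04 and 0.00. Of 6 fibroblast markers 5 were higher in mature tKO mice over both lines, and their summed level was 459 to 549 CPM in control and 402 to 698 CPM in tKO libraries. By line, 2 of 6 were above 0 in the Rbfox1 line, with a median of -0.03, and 5 of 6 in the Rbfox2 line, with a median of 0.52. Of the endothelial markers all 5 tested were higher, with a median log2 fold change of 0.19 over both lines, 0.37 in the Rbfox1 line and 0.01 in the Rbfox2 line, and a summed level of 61.4 to 83.0 CPM in control and 65.6 to 90.1 CPM in tKO libraries. The part of these cells in the members' levels was not tested.

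**Figure D2:**
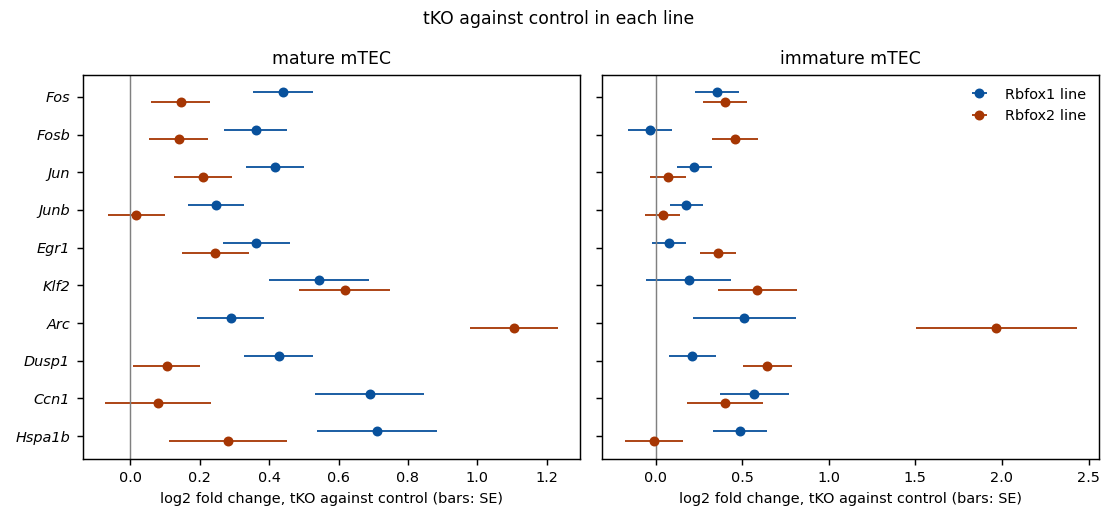
Log2 fold change of each member, tKO against control, in mature (left) and immature mTEC (right); points are the fitted value in the Rbfox1 line (blue) and the Rbfox2 line (brown), and bars are 1 SE. All 20 mature values lie above 0, as do 18 of the 20 immature values, with *Arc* in the Rbfox2 line farthest right at 1.10 in mature and 1.97 in immature mTEC.

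The immature libraries of the same mice were not used to choose the members, although they share the animals, and there tKO was tested against control with edgeR's quasi-likelihood test. Over both lines all 10 log2 fold changes were above 0, with a median of 0.32 against 0.00 over all 13060 rows, yet no member passed an adjusted p of 0.05 in this fit. The values ran from 0.11 ± 0.07 (SE) for *Junb* to 0.93 ± 0.28 for *Arc*. The lowest adjusted p was 0.157, for *Fos*, whose log2 fold change was 0.38 ± 0.09, and 6 members had an unadjusted p under 0.05, against 7.47% of rows. DESeq2 called 0 members as well. By edgeR's adjusted p alone *Fos* passed without the Rbfox1 tKO female (0.47, adjusted p = 0.00911). Without a filter on low counts *Fos* (adjusted p = 0.00106), *Ccn1* (1.045e-05) and *Arc* (0.000333) passed. Over the alternatives the adjusted p ran from 0.00106 to 0.558 for *Fos* and from 1.045e-05 to 0.9998 for *Ccn1*. By edgeR 4 rows, 0.0306% of those tested, passed an adjusted p of 0.05 with a fold change over 2, so few rows of any kind were called.

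In each line taken alone the picture was the same. In the Rbfox1 line 9 of 10 members were above 0, with a median of 0.22. There 0 were called by edgeR and 0 by DESeq2, while 4 had an unadjusted p under 0.05, against 5.9% of rows, and 0.0306% of all rows were called. In the Rbfox2 line 9 of 10 were above 0, with a median of 0.40. There too 0 were called by edgeR and 0 by DESeq2, with 6 at an unadjusted p under 0.05, against 6.25% of rows, and 0.0536% of all rows called. The tKO libraries lay above the control libraries for 8 members in the Rbfox1 line (all but *Fosb* and *Egr1*), against 17.9% of rows. In the Rbfox2 line they did so for 6 members (*Fos*, *Fosb*, *Egr1*, *Arc*, *Klf2* and *Dusp1*), against 17.6% of rows. For *Fos*, *Arc*, *Klf2* and *Dusp1* this held in both lines, against 3.99% of rows, and no member lay the other way round in either line.

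*Fos* was at 319 and 316 CPM in immature Rbfox1 control libraries, 342 and 470 CPM in Rbfox1 tKO, 380 and 409 CPM in Rbfox2 control, and 492 and 548 CPM in Rbfox2 tKO libraries. *Dusp1* was at 83.2 and 72.8 CPM, 84.8 and 96.1 CPM, 73.2 and 80.4 CPM, and 111 and 129 CPM in the same order, which gave 0.42 ± 0.11 over both lines at an adjusted p of 0.268. *Arc* was at 31.0 and 30.4 CPM, 34.2 and 53.9 CPM, 2.12 and 11.8 CPM, and 20.2 and 32.9 CPM. Its Rbfox2 control values rest on 4 and 20 counts, so that the log2 fold change of 1.97 ± 0.47 in that line (adjusted p = 0.209) has a large counting error. Without the library of 20 counts it became 3.61 at an adjusted p of 0.0236, and without any filter 1.94 at 1.37e-05. The range of the adjusted p over the alternatives was 1.37e-05 to 0.9999. Over both lines the change of *Arc* passed both thresholds in 1 fit with all 16 libraries, at 1.24 and an adjusted p of 0.0216, where the alternatives ranged from 0.000333 to 0.9998. *Ccn1* changed by 0.49 ± 0.14 (adjusted p = 0.369), *Klf2* by 0.40 ± 0.17 (adjusted p = 0.618) and *Hspa1b* by 0.26 ± 0.13 (adjusted p = 0.671).

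The tKO effects of the lines were also set against each other in immature mTEC. With the line-by-genotype term 0 members were called by edgeR and 0 by DESeq2, against 0.00766% of rows, and 4 members had an unadjusted p under 0.05, against 4.43% of rows. Those were *Arc*, *Fosb* and *Dusp1*, larger in the Rbfox2 line, and *Hspa1b*, larger in the Rbfox1 line.

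Related genes outside the members were summarised in the same fit. Of 22 other immediate early genes tested, 18 were above 0 in immature tKO mice, with a median of 0.15. By edgeR 0 were called, and 9 had an unadjusted p under 0.05, against 7.47% of rows. The largest values were those of *Nr4a1*, an orphan nuclear receptor, at 0.58 ± 0.30 (adjusted p = 0.680), and *Ccn2*, a relative of *Ccn1*, at 0.57 ± 0.20 (adjusted p = 0.520). The stress factor *Atf3* reached 0.53 ± 0.10 at an adjusted p of 0.0623. Of 12 heat shock proteins 5 were above 0, with a median of 0.00, and of 6 MAP kinase feedback inhibitors 5 were, led by *Dusp5* at 0.43 ± 0.20 (adjusted p = 0.670). Of 8 upstream regulators 5 were above 0. In the same libraries all 6 fibroblast and all 6 endothelial markers were higher in tKO mice over both lines, with medians of 0.40 and 0.67. The endothelial rise was confined to the Rbfox2 line, with 6 of 6 above 0 and a median of 1.15. In the Rbfox1 line 1 of 6 was above 0, with a median of -0.12. Fibroblast markers had medians of 0.42 in the Rbfox1 line (5 of 6 above 0) and 0.38 in the Rbfox2 line (6 of 6). Summed fibroblast markers ran from 336 to 2053 CPM in control and from 556 to 2600 CPM in tKO libraries. The mitochondrial share of counts was 0.152 to 0.160% in control and 0.176 to 0.212% in tKO libraries of the Rbfox1 line. In the Rbfox2 line it was 0.203 to 0.254% in control and 0.2635 to 0.303% in tKO libraries. The tKO libraries thus lay above the control libraries in each line. The part of these cells and of RNA quality in the members' values was not tested.

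To see whether the members moved together per library, each value was set against the mean of its condition, so that line, genotype and population played no part. Each condition of 2 libraries gives 1 independent difference, so a correlation over 8 libraries rests on 4 differences and is a description without a p. In mature mTEC the median Pearson correlation over the 45 pairs of members was 0.68, from -0.05 to 0.94, and 44 pairs were positive. Over all pairs of rows the median was 0.00. In immature mTEC the median was 0.17, from -0.76 to 0.95, with 30 of 45 pairs positive. The closest mature pairs were *Arc* and *Klf2* at 0.94, *Fosb* and *Jun* at 0.92, and *Junb* and *Egr1* at 0.91. In immature mTEC *Fos* and *Egr1* were closest, at 0.95, and *Arc* and *Ccn1* farthest, at -0.76. Without the 2 Rbfox1 tKO libraries the immature median fell to -0.08, whereas leaving out any condition kept the mature median between 0.63 and 0.74.

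The differences between the mice of a condition show the pattern directly. In mature Rbfox1 tKO libraries all 10 members were higher in the female, with a median difference of 0.12 on the log2 scale, and in Rbfox2 tKO libraries 9 of 10 were, with a median of 0.15. In the control mice the order was the other way, with 9 of 10 members higher in the male in the Rbfox1 line and 8 of 10 in the Rbfox2 line. Of all rows between 49.5% and 51.1% were higher in the female in these 4 conditions. In immature mTEC 9 of 10 members were higher in the male in Rbfox1 tKO mice, 8 of 10 were higher in the female in Rbfox2 tKO mice, and the control mice were split 7 to 3 and 5 to 5. The mature and immature libraries of the Rbfox1 tKO mice thus ordered the same female and male in opposite ways. Over the 8 conditions the median differences between female and male ran from -0.177 to 0.146.

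**Figure D3:**
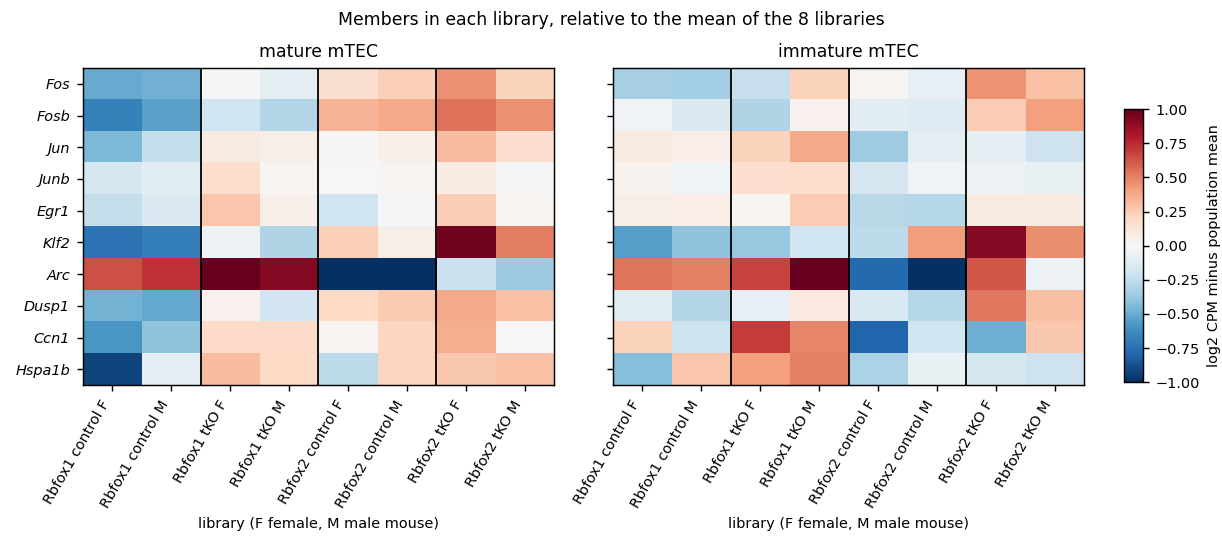
Log2 CPM of each member minus its mean over the 8 libraries of the population, one column per library (F female, M male), with colour ending at -1 and 1. In mature mTEC 9 of 10 members are below the mean in both Rbfox1 control libraries, where *Arc* is above it, and 6 to 9 of 10 are above the mean in the other libraries.

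Relative to the mean of all 8 mature libraries, the members stood lowest in the Rbfox1 control libraries, where their mean deviations were -0.41 in the female and -0.25 in the male and 9 of 10 members were below the mean. They stood highest in the Rbfox2 tKO female at 0.34, with 9 of 10 members above. Without *Arc* these 3 values were -0.53, -0.36 and 0.40. In immature mTEC the Rbfox2 control male and female stood at -0.36 and -0.32 and the Rbfox1 tKO male highest at 0.33. The value of the Rbfox2 control male rests on *Arc* at 4 counts. Without *Arc* it was -0.09, above both Rbfox1 control libraries at -0.11, while the Rbfox2 control female was lowest at -0.27 and the Rbfox1 tKO male highest at 0.22.

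The members also differed in how closely they followed each other over all 16 libraries, again as deviations from the condition means. *Egr1* had the highest correlation with the mean of the other members, 0.90, and *Fos* followed at 0.80. *Fosb* was at 0.64, *Jun* at 0.58, *Dusp1* at 0.55 and *Junb* at 0.48. *Klf2* at 0.14, *Hspa1b* at 0.12, *Arc* at -0.24 and *Ccn1* at -0.33 did not follow the others over both populations. Among the 6889 other genes with a mean of at least 32 CPM, those most like the mean of the members were *Otulin* at 0.90, *Zc3h7a* at 0.88, *Sash1* at 0.86, *Scrib* at 0.84 and *Ier2*, itself an immediate early gene, at 0.82. These values rest on 8 independent differences and are given without a test. The means of members were not scaled by gene. *Arc*, at 4 and 20 counts in the immature Rbfox2 control libraries, gave the widest difference between mice of a condition, 2.03 on the log2 scale. It therefore weighs heavily in every value here but its own, and the order of genes may depend on it.

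Maturation was compared in control mice, whose 4 mature libraries also served as the reference in the contrast that chose the members. In mature relative to immature mTEC *Arc* rose by 1.93 ± 0.18 (SE) on the log2 scale (adjusted p = 3.85e-07) and *Klf2* by 1.09 ± 0.13 (adjusted p = 4.69e-06), whereas *Ccn1* fell by 2.79 ± 0.20 (adjusted p = 2.25e-08). These 3 of 10 members passed both the adjusted p and the fold threshold, 2 upward against 23.7% of all 15357 rows and 1 downward against 10.8%. Without the fold threshold 7 members passed, 6 upward, against 66.2% of rows, a share near that of all genes. The 4 added were *Dusp1* (0.72 ± 0.12), *Fosb* (0.65 ± 0.15), *Junb* (0.42 ± 0.07) and *Egr1* (0.22 ± 0.09, adjusted p = 0.0330). *Fos* at 0.14 ± 0.08, *Hspa1b* at 0.28 ± 0.19 and *Jun* at -0.21 ± 0.11 did not pass. Without the immature library of the Rbfox2 control female the change of *Klf2* was 0.92, under the fold threshold. *Egr1* no longer passed without a filter on low counts (adjusted p = 0.0629) or without either library of the Rbfox2 control male or the immature library of the female (0.16 in each, adjusted p = 0.118 to 0.156).

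CPM was scaled within each population, so the following levels are side by side only. *Ccn1* was at 288 and 212 CPM in immature and 23.7 and 26.8 CPM in mature Rbfox1 control libraries, and at 213 and 141 CPM and 41.3 and 36.2 CPM in Rbfox2 control libraries. *Klf2* went the other way, from 22.5 and 25.1 CPM to 47.1 and 48.9 CPM in the Rbfox1 line and from 45.1 and 27.8 CPM to 81.8 and 92.9 CPM in the Rbfox2 line. Whether the populations overlapped is not read from these levels, since they were scaled apart. In tKO mice, given as a description, the changes were -2.90 for *Ccn1*, 1.28 for *Klf2* and 1.49 for *Arc*.

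Among the related genes, 9 of 24 other immediate early genes were called higher and 2 lower in mature control mTEC, where 23.7% of all rows were called higher and 10.8% lower. The orphan receptor *Nr4a3* led with 3.80 ± 0.30 (adjusted p = 6.02e-08), the stress gene *Gadd45b* rose by 1.72 ± 0.11, the neuronal factor *Npas4* by 1.90 ± 0.39, and *Ccn2* fell to 0.330 of its immature level (adjusted p = 3.47e-05), as its relative *Ccn1* also fell. *Batf*, a partner of JUN proteins, rose by 2.11 ± 0.34. Of 8 MAP kinase feedback inhibitors 3 were called higher (*Dusp2*, *Spry4* and *Dusp4*) and 1 lower, *Dusp6*, at -1.47 ± 0.15. Of 12 heat shock proteins 2, *Hspa5* (1.09 ± 0.08) and *Dnaja1* (1.05 ± 0.28), were called higher, a share no larger than that of all rows. By edgeR 0 of 8 upstream regulators were called with the fold threshold, and 7 of 8 had an unadjusted p under 0.05, against 69.1% of all rows. Among them *Srf*, the factor that binds the CArG box, was at -0.94 ± 0.11 (adjusted p = 4.09e-06). Fibroblast markers moved with this comparison, 4 of 6 called lower in mature mTEC and *Pdgfrb* higher, and 3 of 5 endothelial markers were called lower. Myeloid and B cell markers went the other way, with all 4 tested called higher and a median of 3.27. All 3 thymocyte markers tested were called higher too, with a median of 2.08. The paper describes promiscuous expression of genes of other tissues in mTEC, so RNA of such markers does not tell other cells from mTEC. The part of other cells, or of such expression, in the fall of *Ccn1* and in the rise of other members and related genes was not tested.

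The maturation change was also set side by side in the control mice of the 2 lines. This comparison uses the mature control libraries that served to choose the members, whose tKO difference was larger in the Rbfox1 line, and a choice of that kind favours genes with low mature Rbfox1 control values. It is therefore given as a description, and nothing is read from its counts. All 10 differences, Rbfox1 minus Rbfox2, were below 0, with a median of -0.49 against -0.02 over all rows, and 4 members were past an adjusted p of 0.05, against 1.74% of rows. They were *Fosb* (-0.97 ± 0.14), *Jun* (-0.63 ± 0.14), *Dusp1* (-0.72 ± 0.16) and *Ccn1* (-1.08 ± 0.26). The log2 fold change of *Fosb* was 1.14 in the Rbfox2 line, from 120 and 121 CPM to 282 and 273 CPM, and 0.17 in the Rbfox1 line, from 128 and 119 CPM to 135 and 148 CPM. *Dusp1* was at 1.09 in the Rbfox2 line and 0.37 in the Rbfox1 line, and *Jun* at 0.11 and -0.53. *Ccn1* was lower in mature mTEC of both, at -3.33 in the Rbfox1 line and -2.25 in the Rbfox2 line. Fibroblast markers differed between lines with the other sign, all 6 above 0, from 1.20 for *Pdgfrb* to 2.34 for *Pdgfra*, and the part of these cells in the members' differences was not tested.

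**Figure D4:**
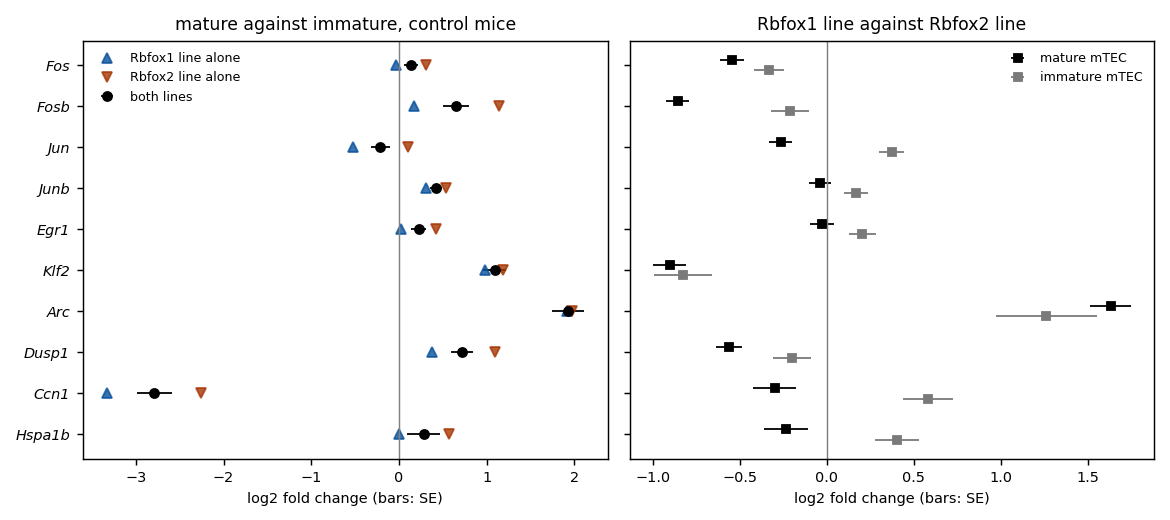
Left, log2 fold change of mature against immature mTEC in control mice over both lines (black points, bars 1 SE) and in each line alone (triangles, fitted values without error bars); right, Rbfox1 line against Rbfox2 line in mature (black) and immature mTEC (grey), bars 1 SE. *Ccn1* lies at -2.79 on the left and *Arc* at 1.63 and 1.26 on the right.

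Some members differed between the lines in a fit of line plus genotype, which gives 1 line difference over both genotypes. The mature libraries of this fit also served to choose the members, a choice that favours low mature Rbfox1 control values. The mature p-values are therefore not independent of the choice, and the mature values are a description. *Arc* was higher in the Rbfox1 line by 1.63 ± 0.12 (SE, log2) in mature mTEC (adjusted p = 1.06e-08), the 1 member past both thresholds, against 1.05% of 18021 rows. Its 4 Rbfox1 line libraries, at 114 to 150 CPM, all lay above the 4 Rbfox2 line libraries, at 27.1 to 62.5 CPM, against 8.91% of rows. Without the fold threshold 6 members passed, against 13.5% of rows, and the 5 others were lower in the Rbfox1 line. They were *Klf2* (-0.90 ± 0.09, adjusted p = 2.32e-06), *Fosb* (-0.86 ± 0.07, adjusted p = 4.09e-08), *Dusp1* (-0.56 ± 0.08), *Fos* (-0.54 ± 0.07) and *Jun* (-0.27 ± 0.06, adjusted p = 0.00784). For *Fos*, *Fosb*, *Klf2* and *Dusp1* all 4 Rbfox2 line libraries lay above all 4 Rbfox1 line libraries, against 9.32% of rows. *Junb* at -0.04 ± 0.06 and *Egr1* at -0.03 ± 0.07 did not pass, and their sign turned under other settings.

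In immature mTEC *Arc* was again higher in the Rbfox1 line, by 1.26 ± 0.29 (adjusted p = 0.00430), against 5% of 13060 rows called. The call ended in DESeq2 (1.40, adjusted p = 0.0747), where the 12 alternatives ranged from 7.16e-10 to 0.0747, and without the Rbfox2 control male, in which *Arc* had 4 counts (0.92, under the fold threshold). Without the fold threshold 6 members passed, against 23.5% of rows. *Ccn1* (0.58 ± 0.14), *Hspa1b* (0.40 ± 0.13) and *Jun* (0.37 ± 0.07) were higher, and *Klf2* (-0.83 ± 0.17) and *Fos* (-0.34 ± 0.09) lower in the Rbfox1 line. In DESeq2 *Ccn1* (adjusted p = 0.0890) and *Hspa1b* (adjusted p = 0.188) no longer passed. *Hspa1b* also missed the threshold in edgeR without any 1 of 6 libraries, which were the Rbfox1 control male, the Rbfox2 control female and each of the 4 tKO libraries (0.31 to 0.40, adjusted p = 0.0537 to 0.118). For *Ccn1* and *Hspa1b* the control libraries of the 2 lines overlapped. *Hspa1b* was at 252 and 411 CPM in Rbfox1 control and 323.5 and 272.5 CPM in Rbfox2 control libraries. In tKO libraries it was at 450 and 481 CPM in the Rbfox1 line and 293.5 and 299 CPM in the Rbfox2 line. Only *Jun* had all 4 Rbfox1 line libraries above all 4 Rbfox2 line libraries, against 12.4% of rows, and no member had the reverse, against 11.3% of rows. *Ccn1*, *Jun* and *Hspa1b* thus had fitted values of opposite sign in the 2 populations, and *Arc*, *Klf2* and *Fos* of the same sign. All 6 fibroblast markers and 5 of 6 endothelial markers were called lower in immature mTEC of the Rbfox1 line, and the mitochondrial share was 0.152 to 0.212% there and 0.203 to 0.303% in the Rbfox2 line. Line, breeding and any difference in preparation cannot be told apart.

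No member passed an adjusted p of 0.05 between female and male mice in the edgeR fit. In mature mTEC 0 members were called by edgeR and 0 by DESeq2, against 0.0277% of rows, and 2 had an unadjusted p under 0.05, against 6.4% of rows, *Klf2* (0.23 ± 0.08) and *Hspa1b* (-0.30 ± 0.10, adjusted p = 0.639). Without a filter on low counts *Hspa1b* passed (-0.29, adjusted p = 0.000298), and without the female or the male Rbfox1 control library it was at -0.13. Its adjusted p ran from 0.000298 to 0.9999 over the alternatives. In immature mTEC 0 were called by either tool, against 0.0536% of rows. There *Hspa1b* was the 1 member with an unadjusted p under 0.05, against 3.88% of rows (-0.26 ± 0.10, adjusted p = 0.9997). Without the female or the male Rbfox1 control library it was at -0.11. The lower value of *Hspa1b* in females was widest in the Rbfox1 control mice, whose female had 243 (mature) and 252 (immature) CPM and whose male had 432 and 411 CPM. *Hspa1a* was at 99.6 and 118 CPM in that female and at 211 and 185 CPM in the male. Both populations of this female thus held the lowest *Hspa1b* level among the 8 libraries.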

How the data were processed

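RNA was measured in 16 libraries, grouped by GEO's labels into line, genotype and population (2 mice each). The deposited values are raw counts per gene from featureCounts 1.6.0, made by the authors after HISAT2 2.1.0 alignment to mm10 and Picard 2.10.9 removal of duplicates, and, per the file headers, after down-sampling to 14500000 alignments (mature) or 10000000 (immature). Equal down-sampling evens sequencing depth within a population, and removal of duplicates without molecular identifiers can lower the counts of short, abundant transcripts. The order and role of these tools come from the submitters' processing notes and column names.

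Counts were fitted with edgeR 4.0.16 (quasi-likelihood, TMM, filterByExpr at a minimum count of 10) in R 4.3.3, over all rows of a comparison, with Benjamini-Hochberg adjustment. A call needed an adjusted p under 0.05 and a fold change over 2. Condition means were used for the lines alone, and line plus genotype or line plus population otherwise. CPM used TMM library sizes within a population, so levels of different populations were compared only through the joint fit, and correlations used log2 CPM with a prior count of 2. Python 3.11.15 with pandas 2.3.3 handled the tables. DESeq2 1.42.0, other normalizations and filters, left-out libraries and blocks were alternatives. The scripts were tested on simulated data.

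Replicates are separate mice. The chi-square between the libraries of a condition was 1.78 to 2.74 per degree of freedom, above sampling noise for all. Mature and immature libraries of a mouse are paired by animal, and their deviations correlated at 0.136 to 0.267. The members and gene lists were chosen with earlier results of these data known. The text names every member, *Hspa1a*, up to 4 called genes of a list with the largest change (the 2 largest where none was called), and the 5 genes most like the members. Lists of AP-1 subunits, immediate early genes, MAP kinase inhibitors, heat shock proteins, upstream regulators and cell type markers were summarised by counts and medians. Depth limits *Arc* and *Klf2* in immature mTEC, with 4 to 106 and 47 to 93 counts per library.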

Additional observations from a re-analysis of the deposited data

Results flagged for a closer look

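The maturation change, mature against immature mTEC in control mice, differed between the lines for 4 members at an adjusted p of 0.05 by the line-by-population term of the edgeR fit, out of 20 such terms over both kinds of interaction. The mature control libraries also served to choose the members, so the term is not independent of that choice and the values are a description. The differences, Rbfox1 minus Rbfox2 on the log2 scale, were -0.97 for *Fosb*, -0.63 for *Jun*, -0.72 for *Dusp1* and -1.08 for *Ccn1*. Over the alternatives the value of *Fosb* stayed between -1.04 and -0.89, with an adjusted p of up to 0.0796, and that of *Jun* between -0.78 and -0.51, with up to 0.284. The value of *Dusp1* stayed between -0.83 and -0.63, with up to 0.232, and that of *Ccn1* between -1.42 and -0.82, with up to 0.662. In 20 comparisons of a member's log2 CPM, no control library was flagged as standing apart. The rule set the gap to the nearest library against the range of the 4 control libraries of a population. Because these come from 2 lines, a line difference widens the range and the rule can flag little. It did not flag *Arc* in the immature Rbfox2 control male, at 4 counts and 2.12 CPM.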

How the results depend on the processing

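Of 679 alternative values of the members' log2 fold changes, 650 kept direction and call. Without the fold threshold the counts of members rose from 1 to 6 between lines in mature and in immature mTEC, from 3 to 7 for maturation and from 1 to 4 for its difference between lines. Between lines in immature mTEC the count was 0 with DESeq2 and with a minimum of 10 counts per library, and ranged from 0 to 1 with a library left out. For Rbfox2 tKO in immature mTEC it was 1 without a filter and 0 to 1 with a library left out, and over both lines 1 with all 16 libraries in 1 fit. The count for the maturation difference was 0 with DESeq2 size factors, without a filter and with at least 10 counts, 2 with library totals and 0 to 2 with a library left out. Maturation in the Rbfox2 line alone, chosen after seeing the data, gave 5 members. In that choice *Jun* turned to 0.11, and in the Rbfox1 line alone *Fos* turned to -0.037 and *Hspa1b* to -0.0014. Between lines in mature mTEC *Junb* turned to 0.0143 and *Egr1* to 0.0263 with library totals, and *Egr1* ranged from -0.0915 to 0.0233 with a library left out, turning in 3 of these fits. Without both Rbfox1 tKO libraries, an alternative also chosen after seeing the data, the immature median correlation was -0.076. The cause of these changes was not tested. The replicate block changed no count of calls with the fold threshold: with line and number as block 0 members were called for tKO in immature mTEC, and with the mouse as block 3 were called for maturation. By adjusted p alone *Fos* (0.0465) and *Ccn1* (0.00428) passed for tKO over both lines in immature mTEC with the replicate block. Number-matched tKO and control mice share line and sex, and no label says that a number marks a litter. Their deviations correlated at 0.144 and 0.259 in mature mTEC and at 0.0827 and 0.0913 in immature mTEC, the one population where this comparison was tested.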
